A study of Mus musculus with 16 samples.

Results

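The genes described here are 37 enzymes and regulators of glycolysis, pyruvate use and the citric acid cycle, listed by name and followed across embryonic stem cells and the endoderm and mesoderm cells made from them. Each was read from the probe set that the platform annotation gives to that symbol alone and that had the highest mean over the 16 arrays. This left 34 of the 37 genes, of 18716 genes with such a probe set, and Gpi1, Gapdh and Eno1 were not analysed here. The arrays were Affymetrix Mouse Gene ST 1.0 and covered 8 groups, each by RNA of 2 biological replicates. All groups are the same mouse embryonic stem cell line, labelled E14.1 on a 129/Ola background, which carries a GFP reporter at T and a tagRFP reporter at Foxa2, each on 1 allele (T GFP/+; Foxa2 tagRFP/+). The study's methods instead list this reporter line as G4 mESCs, so the parental line and strain are not settled. They also describe the GFP insertion as disrupting T expression, whereas tagRFP is fused to the Foxa2 reading frame. F+ cells (Foxa2+, T−) came from endoderm medium with 12 ng/ml activin A and were gated as CD24high or CD24low at day 4 (D4) and day 2 (D2). T+ cells (Foxa2−, T+) came from mesoderm conditions, for which the labels give Bmp4 at 7.5 ng/ml and activin A at 3 ng/ml as additions (whether the activin A of the endoderm medium was also present is not clear from them), and were gated as CD24neg or CD24low at D4 and as CD24low at D2. The study names F+CD24high cells definitive endoderm (DE), F+CD24low cells endoderm progenitors (DEP), T+CD24neg cells mesoderm (MES) and T+CD24low cells mesoderm progenitors (MP). All of these were grown on Wnt3a-expressing feeder cells and sorted, whereas the undifferentiated mESCs (day 0) were grown with serum and LIF on embryonic fibroblasts and were not sorted. Lineage and medium therefore cannot be told apart, and the comparison of DE with MES also changes the CD24 gate.

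Glycolysis turns glucose into pyruvate through a chain of cytosolic enzymes, in which hexokinase traps the sugar and phosphofructokinase is the main point of control. Lactate dehydrogenase interconverts pyruvate and lactate, while the pyruvate dehydrogenase complex carries pyruvate into the mitochondrial citric acid cycle, a step that the pyruvate dehydrogenase kinases switch off. Pluripotent cells are known for high glycolysis in the presence of oxygen, and many genes of the pathway are textbook targets of the hypoxia-inducible factors (HIF).

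Promoters of 4 genes are shown because these genes carry the differences described below (Pfkp, Ldhb, Pdk1) or the largest spread between replicates (Bnip3). Each run is the 250 bases before a RefSeq start site in build GRCm38.p6, 5′ to 3′ on the gene's strand, with the HIF core ACGTG or GCGTG on either strand in capitals (read as CACGT or CACGC on the other strand). The Pfkp run lies within the RefSeq span of its gene (chr13:6579874-6649060), and the Pdk1 run reaches past the first base of its gene (chr2:71873215). The palindrome CACGTG, an E-box, holds the core on both strands and counts as 2 overlapping matches.
Pfkp (chr13:6648772-6649021, minus strand): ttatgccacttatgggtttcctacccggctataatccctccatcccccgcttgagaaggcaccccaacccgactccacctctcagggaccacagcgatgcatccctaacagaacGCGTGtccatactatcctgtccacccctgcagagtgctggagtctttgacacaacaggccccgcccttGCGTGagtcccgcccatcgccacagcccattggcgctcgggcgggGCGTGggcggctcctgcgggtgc
Ldhb (chr6:142507958-142508207, minus strand): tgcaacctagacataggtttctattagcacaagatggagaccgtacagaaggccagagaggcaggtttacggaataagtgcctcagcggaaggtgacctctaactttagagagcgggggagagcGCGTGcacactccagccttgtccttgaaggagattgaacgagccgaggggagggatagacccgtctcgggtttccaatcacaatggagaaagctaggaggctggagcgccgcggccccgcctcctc
Pdk1 (chr2:71872974-71873223, plus strand): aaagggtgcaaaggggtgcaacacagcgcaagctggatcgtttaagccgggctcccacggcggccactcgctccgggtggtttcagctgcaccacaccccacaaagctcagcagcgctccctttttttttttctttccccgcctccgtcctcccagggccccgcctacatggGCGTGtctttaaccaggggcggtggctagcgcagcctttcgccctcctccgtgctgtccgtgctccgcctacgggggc
Bnip3 (chr7:138909507-138909756, minus strand): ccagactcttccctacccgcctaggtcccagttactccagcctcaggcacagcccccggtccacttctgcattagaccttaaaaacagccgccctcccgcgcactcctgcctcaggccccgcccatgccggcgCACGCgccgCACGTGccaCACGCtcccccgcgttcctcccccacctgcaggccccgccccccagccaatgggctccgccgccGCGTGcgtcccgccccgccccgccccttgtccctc

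The core was matched 5 times in the Bnip3 window, of which 2 lie in 1 E-box, 3 times in Pfkp, and 1 time each in Ldhb and Pdk1. Pdk1 has 2 RefSeq windows: the upstream one is shown, and the other (chr2:71874654-71874903) had 0 matches. RefSeq windows were found for 33 of the 34 genes (51 windows, since some genes have several starts), and Idh3a is named only. A core was present in 40 of the 51 windows (78.4%), against 38.6% of the 32841 windows of all genes. CACGTG was present in 8 of the 51 windows (15.7%), against 6.0% of all windows. The forkhead core TGTTTAC, searched on both strands, was present in 1 of the 51 windows (2.0%), against 3.2% of all windows. The HIF cores and the E-box each hold a CG, and the background was not matched to the 51 windows in base content. Overlapping windows of a gene were each counted. The same Ogdh E-box lies in the windows that start at chr11:6292308 and chr11:6292329. A match describes the letters only and is no evidence of binding.

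The deposited values of the arrays had medians between 7.42 and 7.49 on the log2 scale, and replicates correlated over probe sets with r between 0.989 and 0.995, lowest for F+CD24high D2. The gates held their markers: the mean of 4 definitive endoderm genes was 11.34 to 11.38 in F+CD24high D4 arrays, against 7.16 to 7.31 in T+CD24neg D4 arrays, and the mean of 4 mesoderm genes was 6.86 to 6.90 in F+CD24high D4 arrays, against 11.21 to 11.29 in T+CD24neg D4 arrays. Of 20 fibroblast markers 17 were read. Their mean was 7.24 to 7.69 in the sorted groups, against 9.45 to 9.72 in mESC arrays, so that these markers move with every comparison with mESCs. Within F+CD24high D2 the mean of this list was 7.24 on replicate 1 and 7.65 on replicate 2, and Col1a1, a collagen gene of fibroblasts, had values of 8.14 and 10.40. On the same arrays the mean of a visceral endoderm list was 6.68 on the lower and 7.38 on the higher array. This difference came mostly from Cubn, an endocytic receptor, with values of 6.09 and 9.71. Replicate 2 minus replicate 1 was 0.84 for Apob and 0.22 for Amn. It went the other way for Ttr (-0.20), Afp (-0.18) and Apoa1 (-0.10). A list of 6 visceral endoderm genes averaged 8.14 to 8.24 in F+CD24high D4 arrays, against 6.44 to 6.55 in T+CD24neg D4 arrays and 6.55 to 6.57 in mESC arrays. The mean of 4 pluripotency genes was 7.49 to 7.95 in F+CD24high D4, 10.36 to 10.53 in F+CD24low D4, 9.27 to 9.41 in T+CD24neg D4 and 9.93 to 10.09 in T+CD24low D4 arrays. It was 8.88 to 9.01 in F+CD24high D2, 10.62 to 10.65 in F+CD24low D2 and 10.59 to 10.60 in T+CD24low D2 arrays, against 11.59 to 11.94 in mESC arrays. Nanog, Pou5f1 and Sox2 of this list were called lower in F+CD24high D4 cells than in T+CD24neg D4 and in F+CD24low D4 cells, with list medians of -1.56 and -3.28. Of 5 blood progenitor genes Gata1 and Runx1 were called higher in F+CD24high D4 cells in both of these comparisons, and Etv2 lower than in T+CD24neg D4 cells. The part of these lists in the results below was not tested.

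Most of the 34 genes changed little. A gene was called where its log2 difference passed 1 in size and its adjusted p in limma was below 0.05, over the 32000 probe sets fitted. By this rule 9 of the 34 genes (26.5%) were called in at least 1 of the 16 comparisons, against 16.2% of all probe sets, and 25 were called in none. The group means of a gene spanned a median of 0.596 log2 units over the 8 groups, against 0.497 for all probe sets. The span was above 1 for 10 genes and below 0.5 for 12. The 9 called genes were Pfkp, Pfkm, Pfkfb3, Aldoc, Ldhb, Pdk1, Pdk3, Pdk4 and Idh1: 4 of them were called among the sorted populations and 8 against mESCs.

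**Figure D1:**
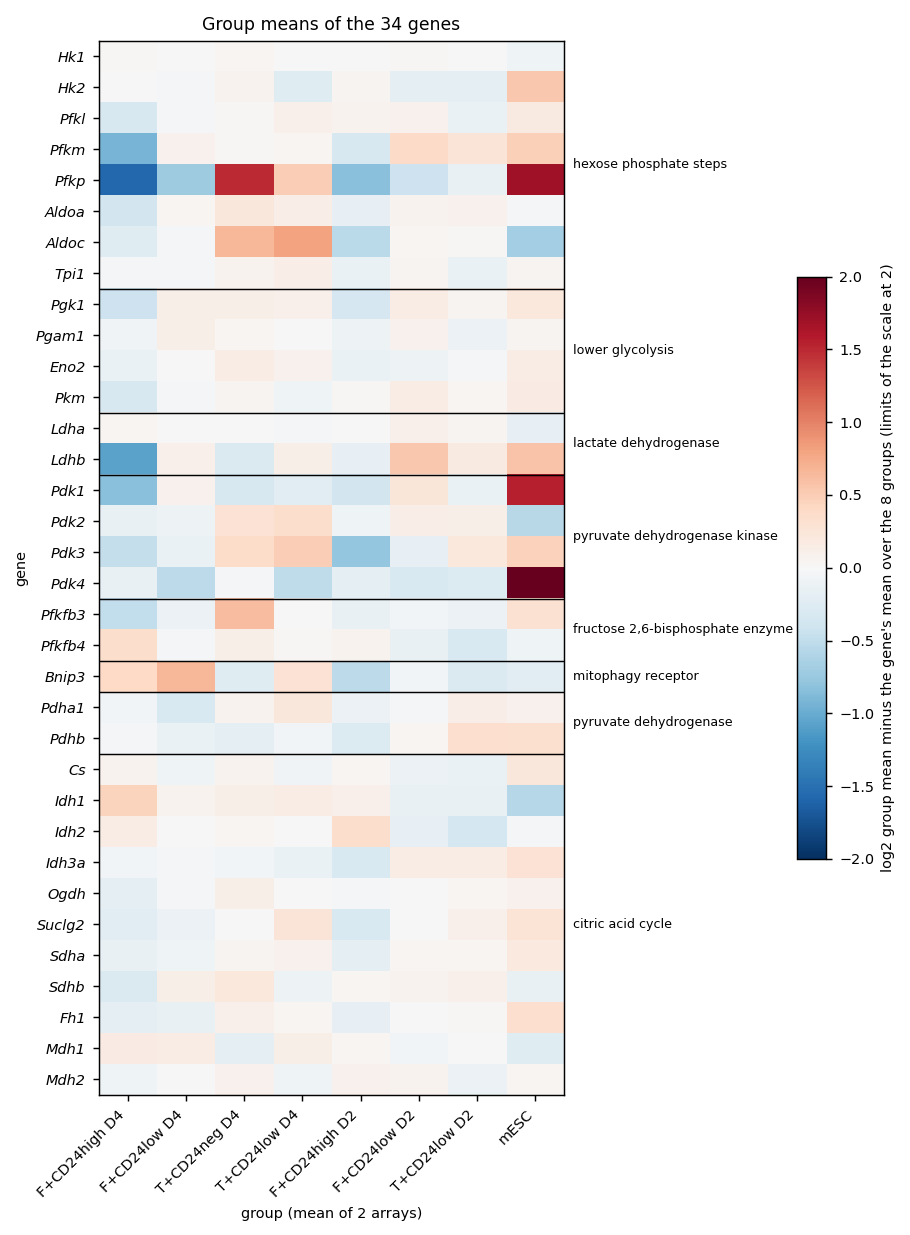
Group means of the 34 genes (rows, ordered by role) in the 8 groups (columns, mean of 2 arrays), as the log2 mean minus the gene's mean over the groups. Pfkp, with group means from 6.44 to 9.71, has the widest span, and Hk1, with a span of 0.13, the narrowest.

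Among the sorted populations few genes were called, and most calls were lower in DE at D4. This group also had the lowest pluripotency markers, and their part in these calls was not tested. In F+CD24high D4 compared with T+CD24neg D4 cells 2 of 34 genes were called, both lower, against 5.88% of all probe sets. In F+CD24high D4 compared with F+CD24low D4 cells 2 were called, both lower, against 4.8%, and in F+CD24low D4 compared with T+CD24low D4 cells 1 was called, lower, against 3.08%. In T+CD24neg D4 compared with T+CD24low D4 cells 1 was called, higher, against 1.1%. These shares of the 34 genes, 1 or 2 genes each, are near the backgrounds.

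In 5 comparisons among sorted populations limma called none of the 34. F+CD24low D2 compared with T+CD24low D2 cells had 3 of 34 genes at an unadjusted p below 0.05, against 11.2% of all probe sets at that p (0.903% were called). F+CD24high D2 compared with F+CD24low D2 cells had 12, against 21.4% (2.8% called). Between days, the D4 cells compared with D2 cells had 2 such genes in F+CD24low cells, against 8.12% (0.294% called), 11 in F+CD24high cells, against 20.3% (1.38% called), and 6 in T+CD24low cells, against 18.8% (1.79% called).

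Against mESCs 3 to 6 genes were called in each sorted group. The count was 6 in F+CD24high D4 cells against mESCs (8.76% of all probe sets), 3 in F+CD24low D4 cells (4.51%), 3 in T+CD24neg D4 cells (5.67%) and 4 in T+CD24low D4 cells (5.46%). It was 4 in F+CD24high D2 cells (6.65%), 3 in F+CD24low D2 cells (3.64%) and 3 in T+CD24low D2 cells (4.1%). The 7 comparisons share the same 2 mESC arrays.

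**Figure D2:**
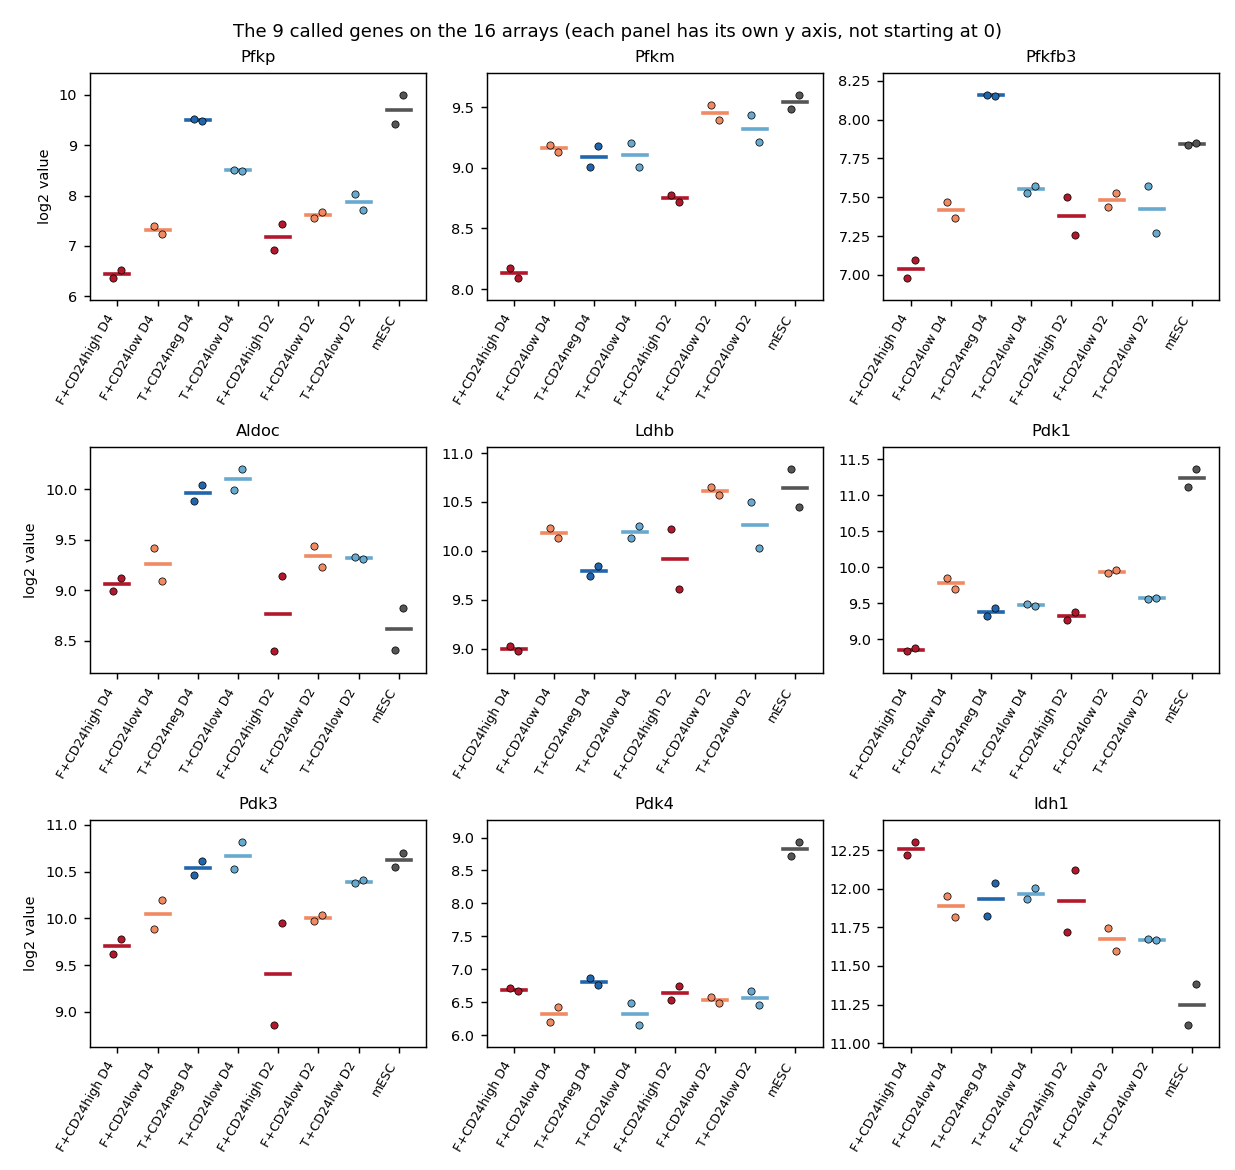
Log2 values of the 9 called genes on the 16 arrays (points) with the group mean (line), by group on the x axis. Each panel has its own y axis. The F+CD24high D4 arrays are the lowest for Pfkp, Pfkm, Ldhb, Pdk1 and Pfkfb3, and the mESC arrays the highest for Pdk1 and Pdk4.

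Phosphofructokinase commits the sugar to glycolysis, and its isoforms were all lowest in F+CD24high D4 cells and highest in mESCs, by different amounts. Pfkp, the platelet-type isoform, had values of 6.36 and 6.52 in F+CD24high D4 and 7.38 and 7.23 in F+CD24low D4 cells, against 9.52 and 9.48 in T+CD24neg D4 and 8.51 and 8.49 in T+CD24low D4 cells. At D2 it had 6.92 and 7.44 in F+CD24high and 7.54 and 7.67 in F+CD24low cells, against 8.02 and 7.72 in T+CD24low cells. The mESC arrays had 9.42 and 10.00. The D4 endoderm and mesoderm arrays did not overlap, and T+CD24neg D4 cells lay within the range of mESCs.

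Pfkp was 8.34-fold lower in F+CD24high D4 than in T+CD24neg D4 cells (log2 difference -3.06 ± 0.19, SE, limma adjusted p 4.97e-07), the largest difference of the 34 genes in that comparison. Between CD24low cells of the lineages at D4 it was -1.19 ± 0.19 (limma adjusted p 0.00189). In bulk RNA, fewer expressing cells and less RNA per cell cannot be told apart. Within the lineages Pfkp moved in opposite directions at D4: F+CD24high minus F+CD24low cells gave -0.87 ± 0.19 (limma adjusted p 0.00872, not called for its size), and T+CD24neg minus T+CD24low cells gave 1.00 ± 0.19 (limma adjusted p 0.0144, called). The call in T+ cells was lost when any of its 4 arrays was left out, with limma adjusted p between 0.0623 and 0.103 and differences between 0.99 and 1.02. The difference between these differences was 1.87 ± 0.28 (limma adjusted p 9.30e-04). This interaction called 2 of the 34 genes, against 6.04% of all probe sets. Against mESCs Pfkp was lower in 6 of the 7 sorted groups, all but T+CD24neg D4, most in F+CD24high D4 cells (-3.27 ± 0.19, limma adjusted p 2.11e-07) and least in T+CD24low D4 cells (-1.21 ± 0.19, limma adjusted p 9.21e-04), whose call was lost without mESC replicate 2 (-0.92). Without F+CD24high D2 replicate 1 the D4 minus D2 difference of F+CD24high cells was narrowly called (limma adjusted p 0.0263).

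Pfkm, the muscle-type isoform, was low in the F+CD24high cells of both days. It had 8.17 and 8.09 in F+CD24high D4, 9.19 and 9.13 in F+CD24low D4, 9.00 and 9.18 in T+CD24neg D4 and 9.20 and 9.01 in T+CD24low D4 cells. The D2 values were 8.78 and 8.72 in F+CD24high, 9.52 and 9.39 in F+CD24low and 9.44 and 9.21 in T+CD24low cells, against 9.49 and 9.60 in mESCs. Both CD24high groups lay below every other array. Pfkm was 2.04-fold lower in F+CD24high D4 than in F+CD24low D4 cells (-1.03 ± 0.11, limma adjusted p 4.42e-05) and the same step in T+ cells was -0.01 ± 0.11. The interaction was 1.02 ± 0.15 (limma adjusted p 0.00114), the other gene that it called. Its size is close to the threshold: the step in F+ cells was -0.99 without F+CD24high D4 replicate 2 and also fell just inside 1 in size without F+CD24low D4 replicate 1, and neither was called, nor was the interaction in these 2 fits (0.98 in each) or without replicate 2 of T+CD24low D4 (0.92) or of T+CD24neg D4 (0.93). At D2 the same step was -0.71 ± 0.11 (limma adjusted p 0.00142), smaller than the threshold. Against T+CD24neg D4 cells it was -0.96 ± 0.11 (limma adjusted p 5.59e-05), and -1.05 without T+CD24neg D4 replicate 1, which was called. Pfkl, the liver-type isoform, had group means between 10.30 in F+CD24high D4 cells and 10.80 in mESCs and was never called.

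Hexokinase phosphorylates glucose, and the reading of Hk1 depended on the probe set. The brightest probe set had group means between 12.98 and 13.11 and was called in no comparison. Its mean of 13.06 lies in the range of 16 probe sets that the annotation gives to Rpl17, a ribosomal protein gene, and Hk1 together (11.68 to 13.14), and the part of Rpl17 in its signal was not tested. The other Hk1 probe set had a mean of 8.43 and correlated with the first at r = -0.27 over the 16 arrays. It had 9.38 and 9.21 in F+CD24high D4, 8.07 and 8.10 in F+CD24low D4, 8.10 and 8.15 in T+CD24neg D4 and 8.44 and 8.38 in T+CD24low D4 cells. At D2 it had 8.74 and 9.09 in F+CD24high, 7.96 and 7.84 in F+CD24low and 7.91 and 7.71 in T+CD24low cells, against 8.98 and 8.79 in mESCs. The CD24high arrays were above all other sorted arrays on both days. In limma its difference was 1.16 ± 0.13 in F+CD24high D4 compared with T+CD24neg D4 cells (adjusted p 3.67e-05), 1.21 ± 0.13 compared with F+CD24low D4 cells (adjusted p 3.89e-05), and 1.02 ± 0.13 in F+CD24high D2 compared with F+CD24low D2 cells (adjusted p 2.95e-04). It was also called lower in T+CD24low D2 cells than in mESCs (-1.08 ± 0.13, adjusted p 1.28e-04). Reading Hk1 this way was chosen after its values were seen.

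**Figure D3:**
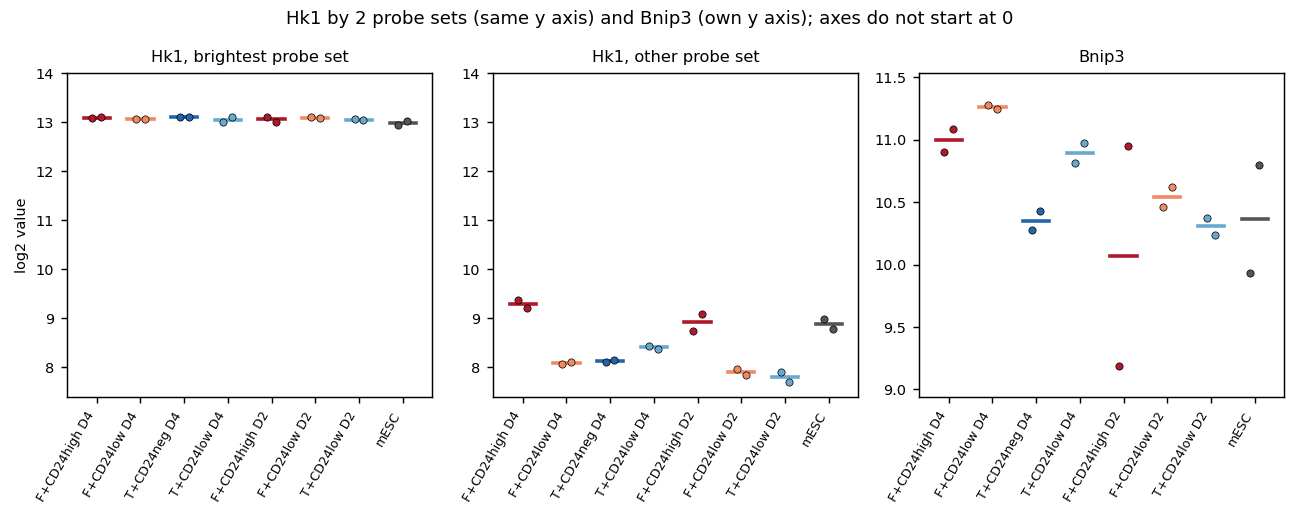
Log2 values on the 16 arrays (points, line at the group mean) of Hk1 by its brightest and its other probe set, drawn on the same y axis, and of Bnip3 on its own y axis, by group. The other Hk1 probe set is highest in F+CD24high D4 cells, and the Bnip3 replicates of F+CD24high D2 lie at 9.19 and 10.95.

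Hk2, the inducible hexokinase, had group means between 9.67 and 9.98 in the sorted groups, against 10.44 in mESCs, with differences of -0.77 to -0.47 that stayed below the threshold of size. Aldolase splits the hexose bisphosphate. Aldoa, its ubiquitous isoform, had 12.69 and 12.79 in F+CD24high D4 cells, against 13.38 and 13.31 in T+CD24neg D4 cells, with no overlap and a difference of -0.60 ± 0.08 (limma adjusted p 2.26e-04, below the threshold of size). Aldoc, the brain-type isoform, had 8.99 and 9.12 in F+CD24high D4, 9.42 and 9.09 in F+CD24low D4, 9.89 and 10.04 in T+CD24neg D4 and 10.00 and 10.21 in T+CD24low D4 cells, against 8.41 and 8.83 in mESCs. It was highest in the T+ cells at D4. Aldoc was 2.79-fold higher in T+CD24low D4 cells than in mESCs (1.48 ± 0.22, limma adjusted p 4.85e-04) and 2.54-fold higher in T+CD24neg D4 cells (1.35 ± 0.22, limma adjusted p 9.20e-04). Its D2 values were 8.39 and 9.14 in F+CD24high, 9.44 and 9.24 in F+CD24low and 9.33 and 9.31 in T+CD24low cells. Tpi1, triosephosphate isomerase, spanned only 0.27 between group means of 12.11 and 12.38.

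The enzymes of lower glycolysis were called in no comparison. Pgk1, phosphoglycerate kinase, had 11.90 and 11.87 in F+CD24high D4 cells, against 12.39 and 12.44 in T+CD24neg D4 and 12.42 and 12.42 in F+CD24low D4 cells. The CD24high arrays were the lower ones, with a difference of -0.53 ± 0.14 from T+CD24neg D4 cells (limma adjusted p 0.0203). Pkm, pyruvate kinase, had 11.91 and 11.79 in F+CD24high D4 cells, against 12.36 and 12.09 in T+CD24neg D4 cells (-0.38 ± 0.11, limma adjusted p 0.0371). Pgam1, phosphoglycerate mutase, spanned 0.24 and Eno2, the neuronal enolase, 0.29 over the group means.

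Lactate dehydrogenase showed a split between its subunits. Ldha, the muscle-type subunit and the brightest gene of the list, had group means between 13.60 in mESCs and 13.87 in F+CD24low D2 cells, a span of 0.26, and was called in no comparison. Ldhb, the heart-type subunit, had 9.03 and 8.97 in F+CD24high D4, 10.23 and 10.13 in F+CD24low D4, 9.74 and 9.84 in T+CD24neg D4 and 10.13 and 10.25 in T+CD24low D4 cells. D2 cells had 10.22 and 9.61 in F+CD24high, 10.65 and 10.57 in F+CD24low and 10.50 and 10.03 in T+CD24low cells, against 10.84 and 10.45 in mESCs. The 2 arrays of F+CD24high D4 lay below the other 14. Ldhb was 2.27-fold lower there than in F+CD24low D4 cells (-1.18 ± 0.20, limma adjusted p 0.00139) and 3.12-fold lower than in mESCs (-1.64 ± 0.20, limma adjusted p 6.57e-05). Against T+CD24neg D4 cells the difference was -0.79 ± 0.20 (limma adjusted p 0.0142), below the threshold of size. Without F+CD24high D2 replicate 1 it was also called in F+CD24high D2 cells, narrowly against F+CD24low D2 cells (limma adjusted p 0.01) and against mESCs (-1.03), without replicate 2 between the days in F+CD24high cells (-1.22), and without mESC replicate 2 in T+CD24neg D4 cells against mESCs (-1.05). The second Ldhb probe set gave -1.31 and -1.68 in the 2 comparisons called.

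Of the pyruvate dehydrogenase kinases, Pdk1 and Pdk4 were lower in every sorted group than in mESCs. Pdk1, a textbook HIF target, had 8.83 and 8.88 in F+CD24high D4, 9.86 and 9.70 in F+CD24low D4, 9.32 and 9.43 in T+CD24neg D4 and 9.48 and 9.46 in T+CD24low D4 cells. At D2 it had 9.27 and 9.38 in F+CD24high, 9.92 and 9.96 in F+CD24low and 9.56 and 9.58 in T+CD24low cells, against 11.11 and 11.37 in mESCs. All sorted arrays lay below both mESC arrays, and F+CD24high D4 was the lowest group. The difference from mESCs was called in all 7 sorted groups, between -2.39 in F+CD24high D4 cells (limma adjusted p 1.67e-08) and -1.30 in F+CD24low D2 cells (limma adjusted p 5.09e-06). Within F+ cells CD24high minus CD24low was -0.92 ± 0.10 at D4 and -0.62 ± 0.10 at D2 (limma adjusted p 4.97e-05 and 0.00202), below the threshold of size in each. The D4 step passed it narrowly without F+CD24low D4 replicate 2 (limma adjusted p 3.67e-04).

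Pdk4, the kinase linked to fatty acid use and fasting, had 6.71 and 6.67 in F+CD24high D4, 6.20 and 6.43 in F+CD24low D4, 6.87 and 6.76 in T+CD24neg D4 and 6.49 and 6.15 in T+CD24low D4 cells. Its D2 values were 6.53 and 6.75 in F+CD24high, 6.57 and 6.48 in F+CD24low and 6.67 and 6.46 in T+CD24low cells, against 8.72 and 8.93 in mESCs. The sorted arrays formed a narrow band below the median of an array, and mESCs stood above them all. The difference from mESCs was called in all 7 groups, between -2.51 in F+CD24low D4 cells (limma adjusted p 3.64e-07) and -2.01 in T+CD24neg D4 cells (limma adjusted p 1.28e-06). Fibroblast markers were also higher on the mESC arrays, and their part in Pdk1 and Pdk4 was not tested.

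Pdk3 had 9.62 and 9.78 in F+CD24high D4, 9.89 and 10.20 in F+CD24low D4, 10.47 and 10.62 in T+CD24neg D4 and 10.53 and 10.82 in T+CD24low D4 cells, so that the F+ arrays lay below the T+ arrays. At D2 it had 8.86 and 9.95 in F+CD24high, 9.98 and 10.04 in F+CD24low and 10.38 and 10.41 in T+CD24low cells, against 10.55 and 10.70 in mESCs. Its call in F+CD24high D2 cells against mESCs (-1.22 ± 0.26, limma adjusted p 0.00493) rested on replicate 1: without it the difference was -0.68 (limma adjusted p 0.014), below the threshold of size, and without replicate 2 the D2 difference from F+CD24low cells was called instead (-1.15, limma adjusted p 0.00134). Without mESC replicate 1 F+CD24high D4 cells against mESCs were narrowly called (limma adjusted p 0.0492). Pdk2 ran the other way, with group means between 8.41 and 8.91 in the sorted groups, against 8.14 and 7.86 on the mESC arrays, and a largest difference of 0.91 ± 0.14 in T+CD24low D4 cells (limma adjusted p 5.50e-04), below the threshold of size but called without mESC replicate 1 (1.05).

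Pfkfb3 and Pfkfb4 make and remove the sugar phosphate that activates phosphofructokinase. Pfkfb3 had 6.98 and 7.10 in F+CD24high D4, 7.47 and 7.37 in F+CD24low D4, 8.16 and 8.15 in T+CD24neg D4 and 7.53 and 7.57 in T+CD24low D4 cells, against 7.84 and 7.85 in mESCs. Its highest group was T+CD24neg D4 and its lowest F+CD24high D4, with no overlap. The difference was -1.12 ± 0.11 or 2.17-fold lower in F+CD24high D4 cells (limma adjusted p 2.21e-05). The steps within the lineages differed by 0.98 ± 0.16 (limma adjusted p 0.00181), just under the threshold of size, and were called without F+CD24high D4 replicate 2, F+CD24low D4 replicate 2 or T+CD24low D4 replicate 2 (limma adjusted p 0.00591 to 0.0073). D2 values were 7.50 and 7.26 in F+CD24high, 7.44 and 7.53 in F+CD24low and 7.57 and 7.27 in T+CD24low cells. Pfkfb4 was near the middle of the array and moved the other way, with 7.65 and 7.71 in F+CD24high D4 cells, against 7.38 and 7.20 in F+CD24low D4 cells (0.39 ± 0.12, limma adjusted p 0.0477).

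Bnip3, a mitophagy receptor and textbook HIF target, was the least reproducible gene of the list, with a pooled SD of 0.50. It had 10.91 and 11.09 in F+CD24high D4, 11.28 and 11.25 in F+CD24low D4, 10.28 and 10.43 in T+CD24neg D4 and 10.82 and 10.97 in T+CD24low D4 cells. On the D2 arrays it read 9.19 and 10.95 in F+CD24high, 10.46 and 10.62 in F+CD24low and 10.37 and 10.24 in T+CD24low cells, against 9.94 and 10.80 in mESCs. The replicates differed by 1.76 in F+CD24high D2 and by 0.87 in mESCs, and the F+CD24high D2 range holds that of mESCs. It was called in no comparison with all arrays, while without F+CD24high D2 replicate 2 the D4 minus D2 difference of F+CD24high cells was 1.81 (limma adjusted p 0.00239) and the D2 difference from F+CD24low cells was -1.35 (limma adjusted p 0.0094), and that from mESCs -1.18 (limma adjusted p 0.00885). Replicates of F+CD24high D2 differed by over 0.5 in 5 of the 34 genes, those of mESCs in 2 and those of the other groups in 0.

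The genes of pyruvate entry and the citric acid cycle differed little between DE and MES at D4. Over the 13 genes listed under pyruvate dehydrogenase and the cycle, the median difference was -0.13 in F+CD24high D4 compared with T+CD24neg D4 cells. The differences ran from -0.49 to 0.34, and 8 of the 13 were below 0. The 13 include the cytosolic Idh1 and Mdh1, which stand outside the mitochondrial cycle. Both had higher means in F+CD24high D4 than in T+CD24neg D4 cells, 12.26 against 11.93 for Idh1 and 11.44 against 11.10 for Mdh1. Mdh1 is the upper end of the range. Over the 14 enzymes of glycolysis and lactate dehydrogenase the median was -0.36, with 13 of 14 below 0, against a median of 0.00 over all probe sets. Hk1 is among the 13 by its brightest probe set (-0.02), while its other probe set gave 1.16, and without Hk1 the median was -0.38 with 12 of 13 below 0. Idh1, the cytosolic isocitrate dehydrogenase that makes NADPH, was the only gene of the 13 called. It had 12.22 and 12.30 in F+CD24high D4, 11.95 and 11.82 in F+CD24low D4, 11.82 and 12.04 in T+CD24neg D4 and 11.93 and 12.00 in T+CD24low D4 cells. D2 arrays read 11.72 and 12.12 in F+CD24high, 11.75 and 11.60 in F+CD24low and 11.67 and 11.67 in T+CD24low cells, against 11.12 and 11.38 in mESCs. Every sorted array was above both mESC arrays, and the difference in F+CD24high D4 cells was 1.01 ± 0.14 (limma adjusted p 1.70e-04), at the threshold: it was 0.88 without mESC replicate 1 and 0.97 without F+CD24high D4 replicate 2, and was then not called.

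Idh2, the mitochondrial NADP-linked form, was highest in F+CD24high D2 cells with 11.41 and 11.35, against 10.95 and 10.77 in F+CD24low D2 cells (0.52 ± 0.11, limma adjusted p 0.0103). Cs, citrate synthase, had group means of 11.43 to 11.63 in the sorted groups, against 11.78 in mESCs. Fh1, fumarase, had 10.55 to 10.84, against 11.07 in mESCs. Both were highest in mESCs by less than the threshold of size. Mdh1, the cytosolic malate dehydrogenase, had group means between 11.04 in mESCs and 11.44 in F+CD24high D4 cells, and Mdh2, its mitochondrial partner, spanned 0.20. Pdha1 and Pdhb, the subunits of the enzyme that decarboxylates pyruvate, spanned 0.53 and 0.61. The other cycle genes, Idh3a, Ogdh, Suclg2, Sdha and Sdhb, spanned 0.31 to 0.59 and were called in no comparison. Over the 13 genes listed under pyruvate dehydrogenase and the cycle, F+CD24high D2 cells differed from mESCs by -0.61 to 0.67. By limma adjusted p alone 5 of the 13 were lower and 3 higher there, against 26.3% of all probe sets in either direction.

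With the threshold of size set aside, more of the 34 genes were lower than higher in DE compared with MES. By adjusted p alone 14 of the 34 genes were lower in F+CD24high D4 than in T+CD24neg D4 cells, against 11.7% of all probe sets, and 1, Mdh1, was higher, against 8.93%. The 14 were Pfkp, Pfkm, Pfkl, Aldoa, Aldoc, Pgk1, Pkm, Ldhb, Pdk1, Pdk2, Pdk3 and Pfkfb3, with Ogdh and Sdhb from the cycle. Against F+CD24low D4 cells 7 were lower by adjusted p alone (9.05% of all probe sets) and 1 higher (7.68%). Against mESCs 15 were lower (15.7%) and 4 higher (14.6%). These comparisons share the F+CD24high D4 arrays. The share of the 34 genes that was lower is above the background in each, while the share that was higher is below it. This background holds all 32000 probe sets fitted, 10173 of them without a symbol. It was not matched to the 34 genes in signal level.

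**Figure D4:**
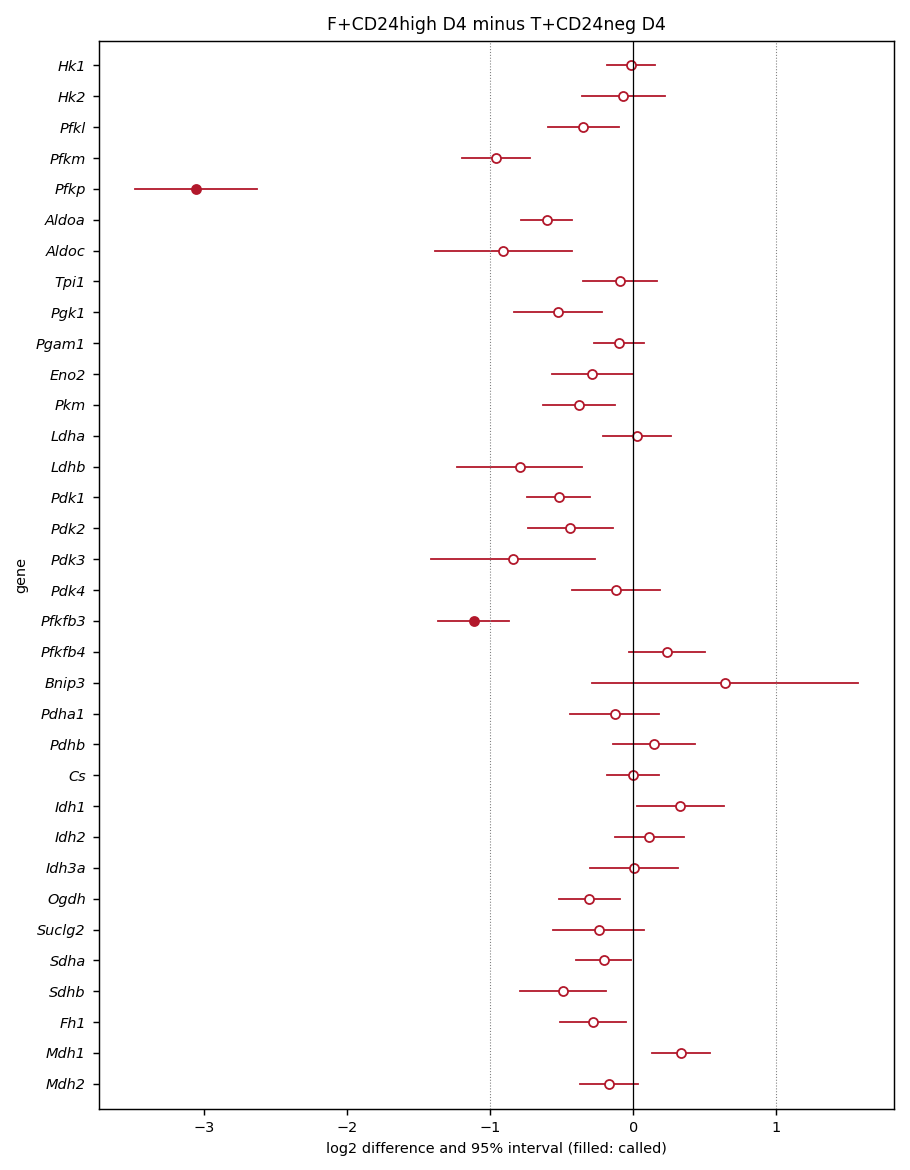
Log2 difference (x axis) with its 95% interval for the 34 genes (y axis, ordered by role) in F+CD24high D4 minus T+CD24neg D4 cells; filled points were called. Pfkp at -3.06 and Pfkfb3 at -1.12 were called. The genes listed under the citric acid cycle, with the cytosolic Idh1 and Mdh1 among them, lie between -0.49 and 0.34.

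The step from CD24low cells to the cells named DE and MES differed between the lineages for Pfkp and Pfkm, as given above. F+CD24high minus F+CD24low cells at D4 had a median of -0.24 over the 14 enzymes of glycolysis and lactate dehydrogenase, with 11 below 0. T+CD24neg minus T+CD24low cells had a median of 0.04, with 5 below 0. Besides Pfkp and Pfkm, adjusted p alone was below 0.05 for the difference of the steps in Aldoa (0.51 ± 0.12), Pdk1 (0.83 ± 0.14), Pfkfb3 and Sdhb (0.71 ± 0.19), all more positive in T+ cells. These 6 of 34 genes stand against 12.9% of all probe sets at that adjusted p. Neither interaction with the day called a gene: the F+CD24low minus T+CD24low difference had 3 of 34 genes at an unadjusted p below 0.05 in limma, against 11.3% of all probe sets (1.38% called), and the F+CD24high minus F+CD24low difference had 2, against 11.1% (0.731% called).

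**Figure D5:**
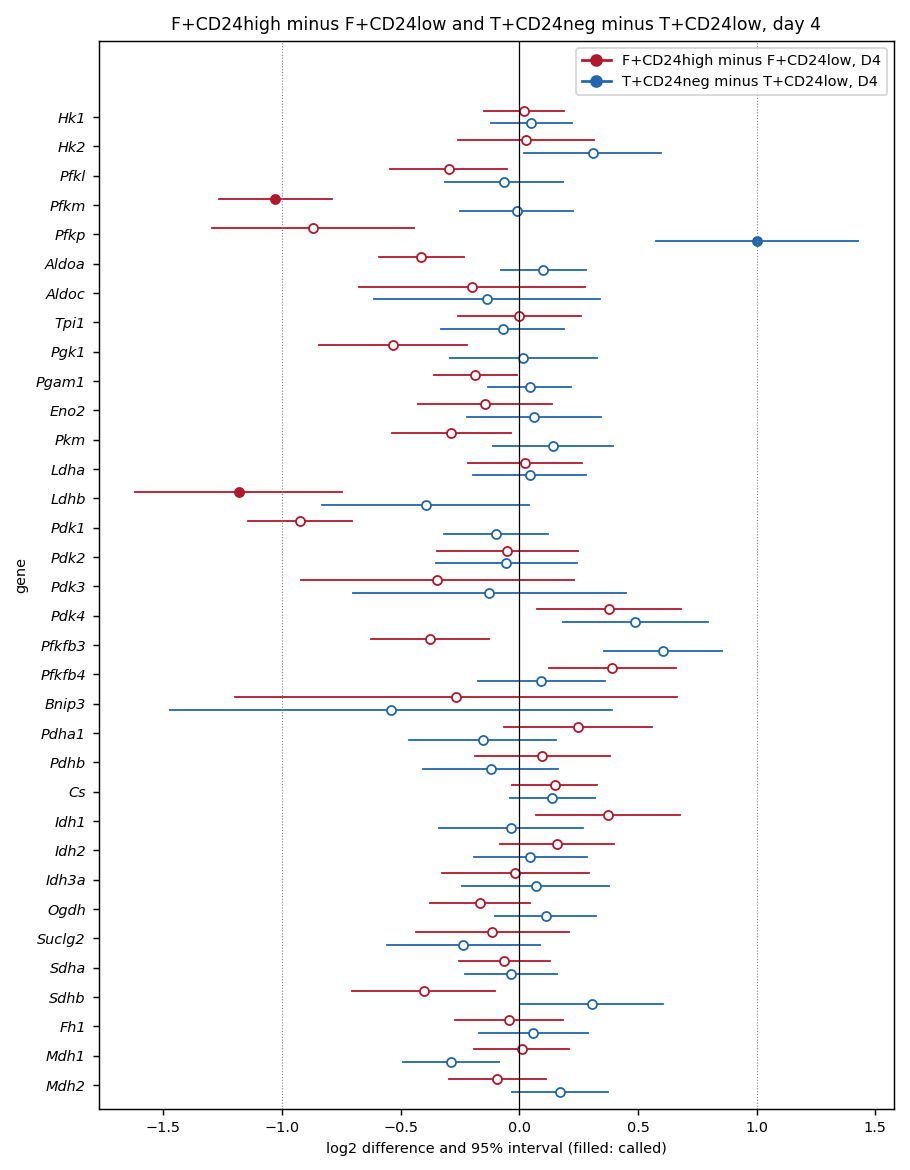
Log2 difference with its 95% interval at day 4 for the 34 genes in F+CD24high minus F+CD24low cells (red, upper) and T+CD24neg minus T+CD24low cells (blue, lower); filled points were called. Pfkp lies at -0.87 in F+ cells and 1.00 in T+ cells, and Pfkm at -1.03 and -0.01.

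Other genes of these pathways were counted beside the members. Of 40 subunits of oxidative phosphorylation and 22 further genes of pyruvate use and the citric acid cycle, 0 were called in any of the 16 comparisons. Over all probe sets 16.2% were called in at least 1. In F+CD24high D4 compared with T+CD24neg D4 cells the median difference was 0.04 for the subunits and -0.02 for the further cycle genes. At an unadjusted p below 0.05 in limma there were 4 of the 40 subunits and 9 of the 22 further cycle genes there, against 30.1% of all probe sets. By adjusted p alone 3 subunits were higher and 0 lower, and 2 further cycle genes higher and 4 lower. Of all probe sets 8.93% were higher and 11.7% lower at that adjusted p.

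Of 23 further glycolysis and gluconeogenesis genes, 2 were higher and 1 lower in F+CD24high D4 than in T+CD24neg D4 cells. This stands against 5.88% of all probe sets called in either direction, and the median over the 23 was -0.04. Hkdc1, a hexokinase-like protein, had 11.07 and 10.80 in F+CD24high D4 cells, against 6.93 and 6.73 in T+CD24neg D4 and 7.78 and 7.83 in F+CD24low D4 cells. It was 17.1-fold higher than in T+CD24neg D4 cells (4.10 ± 0.28, limma adjusted p 1.04e-06), opposite in direction to the phosphofructokinases. The gene listed as Pgm1, of the phosphoglucomutase family that links glycogen to glycolysis, rose by 1.46 ± 0.09 (limma adjusted p 5.77e-07), and Pck2, a mitochondrial enzyme of gluconeogenesis, fell by 1.24 ± 0.28 (limma adjusted p 0.00707). Of 8 pentose phosphate genes limma called 0 in F+CD24high D4 compared with T+CD24neg D4 cells, against 5.88% of all probe sets. At an unadjusted p below 0.05 there were 5 of the 8, against 30.1%. Rpia, ribose phosphate isomerase, was higher in F+CD24high D4 than in F+CD24low D4 cells (1.33 ± 0.13, limma adjusted p 2.13e-05).

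Genes of the HIF response outside the members did not move in a single direction. The list of 26 holds targets and also the HIF subunits Hif1a, Epas1 and Arnt and the prolyl hydroxylase Egln2, none of them called here. Of the 26, 4 were higher and 2 lower in F+CD24high D4 than in T+CD24neg D4 cells, against 5.88% of all probe sets called in either direction. The share called was above that background, and the median difference over the 26 was 0.04. Slc2a3, a glucose transporter, had 13.80 and 13.81 in F+CD24high D4, against 12.62 and 12.60 in T+CD24neg D4 cells (1.20 ± 0.11, limma adjusted p 9.24e-06), and Bhlhe41, a transcriptional repressor, rose by 2.90 ± 0.19 (limma adjusted p 6.86e-07). Bhlhe40, its close relative, fell by 2.43 ± 0.33 (limma adjusted p 2.36e-04), and Plod2, a collagen lysyl hydroxylase, by 1.39 ± 0.21 (limma adjusted p 5.39e-04).

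Among 17 mitochondrial regulators 1, Myc, was called in this comparison, a share near the 5.88% of all probe sets, and the median was -0.01. Myc, a transcription factor, had 9.69 and 9.61 in F+CD24high D4 cells, against 12.08 and 12.11 in T+CD24neg D4 and 10.83 and 10.71 in T+CD24low D4 cells. The difference from T+CD24neg D4 cells was -2.45 ± 0.20 (limma adjusted p 3.39e-06). The mESC arrays had Myc values of 10.90 and 11.18. Cpt1a, which admits fatty acids to mitochondria, had 7.39 and 7.41 in F+CD24high D4, 9.04 and 9.10 in F+CD24low D4, 6.94 and 7.07 in T+CD24neg D4 and 7.03 and 6.90 in T+CD24low D4 cells, against 9.99 and 10.45 in mESCs. Among the sorted cells of D4 it was highest in F+CD24low cells, and in F+CD24high D4 cells it was -1.67 ± 0.15 relative to them (limma adjusted p 1.29e-05).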

How the data were processed

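The authors deposited log2 values per probe set, made from the scanner files in R by robust multichip average (oligo 1.48.0) over all arrays at once. Quantile normalization hides differences in total RNA, and differences of dim genes are compressed. Groups and replicate numbers come from the labels. Of 35556 probe sets the 32000 of highest mean entered one limma fit (limma 3.58.1, R 4.3.3) with 8 group means, contrasts and eBayes; p-values were adjusted by Benjamini-Hochberg over these in each comparison, and interactions were contrasts of the fit. A call needed a log2 difference above 1 in size and an adjusted p below 0.05. Of the probe sets kept, 20427 have 1 symbol, 1400 several and 10173 none here. Every member with a single-symbol probe set is named, and from other lists up to 4 called genes per comparison, those of largest difference. The 34 symbols matched RefSeq by Entrez number. With 2 replicates a group, p-values rest on the spread pooled over 8 groups, and their number limits the precision. The fit was checked on simulated data. Alternatives covered filters, variance moderation, array weights, a replicate block, arrays of the compared groups only, averaged probe sets, the threshold and each array left out. The members and lists were chosen with earlier results of these data known.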

Additional observations from a re-analysis of the deposited data

Results flagged for a closer look

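The change from F+CD24low to F+CD24high cells at day 4 differed from the change from T+CD24low to T+CD24neg cells for 2 of the 34 genes, by a test of the difference itself in limma. For Pfkp the T+ step minus the F+ step was 1.87 (SE 0.28, adjusted p 9.30e-04), and for Pfkm it was 1.02 (SE 0.15, adjusted p 0.00114), so both were more positive in T+ cells. The other Hk1 probe set, which the rule did not read, gave -1.49 (SE 0.18, adjusted p 2.26e-04) in limma, more negative in T+ cells. Endoderm and mesoderm medium and the CD24 gates change with the lineage in these differences and cannot be told apart.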

How the results depend on the processing

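Of 34 called single-gene results 28 were kept under every alternative and left-out array, and 0 reversed; the other 6 are given with their genes above. With adjusted p alone, where the threshold of size is dropped, the counts of the 34 genes against mESCs were 19 in F+CD24high D4 (30.3% of all probe sets at that p), 13 in F+CD24low D4 (18.9%), 9 in T+CD24neg D4 (20.5%), 10 in T+CD24low D4 (20.7%), 18 in F+CD24high D2 (26.3%), 7 in F+CD24low D2 (15.1%) and 7 in T+CD24low D2 cells (14.9%). Likewise they were 15 in F+CD24high D4 compared with T+CD24neg D4 cells (20.6%), 8 compared with F+CD24low D4 cells (16.7%), 4 compared with F+CD24high D2 cells (6.57%), 3 in F+CD24low D4 compared with T+CD24low D4 cells (9.02%), 3 in F+CD24high D2 compared with F+CD24low D2 cells (9.32%), 2 in T+CD24neg D4 compared with T+CD24low D4 cells (3.58%) and 6 in the interaction of lineage and step (12.9%). With 16000 probe sets F+CD24high D4 compared with T+CD24neg D4 cells gave 1, since Pfkfb3, like Pdk4, lies outside them, and 26 of the 34 single-gene results could be given. Leaving out each array in turn gave counts of 3 to 6 against mESCs, 2 to 3 in F+CD24high D4 compared with T+CD24neg D4 cells, 1 to 3 compared with F+CD24low D4 cells, 0 to 2 compared with F+CD24high D2 cells, 0 to 2 in F+CD24high D2 compared with F+CD24low D2 cells, 0 in T+CD24neg D4 compared with T+CD24low D4 cells and 1 to 3 in the interaction. A fit with the replicate block gave the same counts as without it (2 in F+CD24high D4 compared with T+CD24neg D4 cells). Replicate numbers were not shown to pair samples: over 28 pairs of groups the correlation of replicate differences ran from -0.20 to 0.25, with a median of 0.04. Reading Hk1 from its other probe set, a fit without the mESC arrays (8 of 8 results kept) and the glycolysis median without Hk1 were chosen after seeing the data; the first added 1 call in each of 5 comparisons, giving 1 in F+CD24high D2 compared with F+CD24low D2 cells, 3 in F+CD24high D4 compared with T+CD24neg D4 and with F+CD24low D4 cells, 3 in the interaction and 4 in T+CD24low D2 cells against mESCs. Signal over background was not used as a limit, since the deposited values hold none, so that differences of dim genes such as Pdk4 and Pfkfb3 may be understated.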
